A study of Mus musculus with 12 samples.

Results

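Liver sinusoidal endothelial cells line the capillaries of the liver and take up waste molecules from the blood. Here they were followed through 10 genes chosen by name as scavenger and vascular receptors of this endothelium. These were Stab1, Stab2, Lyve1, Gpr182, Fcgr2b, Clec4g, Mrc1, Kdr, Flt4 and Pecam1. Each was represented by 1 probe set, so the 10 made up 10 of 16475 probe sets once array controls were set aside. Total RNA of whole mouse liver had been hybridised to 12 Affymetrix arrays, 1 per animal, in 4 groups of 3. Control mice carried loxP-flanked Met alleles (c-Met loxP/loxP), Met encoding the receptor to which hepatocyte growth factor (HGF) binds. Knockout mice carried the same alleles together with a Cre transgene, either Alfp-Cre, driven by albumin and alpha-fetoprotein elements from embryonic life on, or Alb-Cre, driven by the albumin promoter from 2 weeks after birth. The labels do not say which transgene an array represents, nor the age, sex or strain of the animals. These promoters act in hepatocytes, so the transgene is not aimed at the Met alleles of endothelial cells. Each genotype was sampled unstimulated and 2 h after recombinant mouse HGF (2 µg) was given into the peritoneum. The protocol also names sodium chloride injections without saying which animals received them, so HGF cannot be told apart from injection and handling.

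The sinusoidal endothelium has open pores and no complete basement membrane. Its scavenger receptors bind ligands such as hyaluronan, modified proteins and immune complexes and carry them into the cell for breakdown. Its vascular receptors answer vascular endothelial growth factors (VEGFs), which maintain the endothelium, and the cells take on adhesion molecules and chemokines when cytokines activate them.

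In control livers, Lyve1 was higher on every array with HGF than on any array without it, and 6 of the other genes were lower on every such array: Stab2, Gpr182, Fcgr2b, Clec4g, Mrc1 and Kdr. Of all tested probe sets, 14.1% were higher and 23.7% lower in this way. The mean of Gpr182 was 46.9% lower, that of Fcgr2b 43.2% lower and that of Kdr 53.8% lower. Lyve1 lay near array background without HGF, so no fold is given for it. In knockout livers no gene of the set separated the groups with and without HGF. Of all tested probe sets, 1.24% did so in the lower and 2.56% in the higher direction. Arrays within a knockout group did not lie together, as described below. The overlap of these groups therefore does not show that a response to HGF was absent. The main limma fit gave all 12 arrays one estimate of the spread. In it, none of the 9 tested genes had an adjusted p under 0.05 in any of 6 comparisons. Gpr182 in controls came nearest (adjusted p = 0.0507). It did pass in controls when all 12 arrays were fitted with another pseudocount, filter or normalization. These were a pseudocount of 16, a filter at 6 and quantile normalization (limma adjusted p = 0.0449, 0.0462 and 0.0407). With the spread taken from the 2 control groups alone, Gpr182, Fcgr2b and Clec4g passed. Lyve1 passed there too, but it reached the test only through the arrays on which it was high.

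Values are given throughout as log2(intensity + 1), where intensity is the deposited GCRMA value (GCRMA corrects probes for background and normalizes between arrays). A difference between groups is a difference of mean log2 values. Across the 12 arrays between 37.9% and 38.4% of probe sets reached 4, and Pearson's r between arrays over the 6683 tested probe sets was 0.914 to 0.992. Probe sets were tested where 3 arrays or more reached a value of 4. Array numbers run from 1 to 6 in controls and from 7 to 12 in knockouts, so genotype cannot be told apart from array order. The Met probe set lay at 6.59 to 7.02 in controls and 6.29 to 7.40 in knockouts, and which part of the transcript it covers is not known here, so it checks no label. Each array was placed on a response index, over 6566 tested probe sets outside every gene list used here, on which the mean control array without HGF is 0 and the mean control array with HGF is 1. Knockout replicate 2 stood at 0.98 without HGF, beside 0.12 and 0.05 for replicates 1 and 3. With HGF it stood at 0.03, beside 0.32 and 0.94 for replicates 1 and 3, so arrays of one knockout group did not lie together. Labels were kept as given, and differences of the 9 tested genes that use knockout arrays are also given without both replicate 2 arrays, a choice made with earlier results of these data known.

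Of the 10 genes, 9 passed this filter, so the endothelium was measured through those. Flt4, the VEGF-C receptor of lymphatic and sinusoidal endothelium (also called VEGFR-3), was below 4 on all 12 arrays, at 2.81 to 3.25, and was not tested. Stab1, Stab2, Gpr182, Fcgr2b, Clec4g, Mrc1 and Kdr were at or above 4 on all 12 arrays and Pecam1 on 10. Lyve1 reached 4 on 5 arrays only, so it passed the filter through the arrays on which it was high, and a difference between arrays was a condition of its being tested. This limit holds for every interval, p and call of Lyve1 given here. Several of the genes are not restricted to sinusoidal endothelium: Mrc1 is also known from macrophages, Lyve1 and Flt4 from lymphatic vessels and Pecam1 from all endothelium. Of 5 lymphatic markers on the array, Prox1 and Reln passed the filter, Reln being also on the stellate cell list. Pdpn, at 2.20 to 3.08 on the 12 arrays, Mmrn1, at 1.92 to 2.57, and Tbx1 did not pass. A lymphatic part in the values was not tested. In whole liver, fewer endothelial cells and less RNA per cell cannot be told apart.

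**Figure D1:**
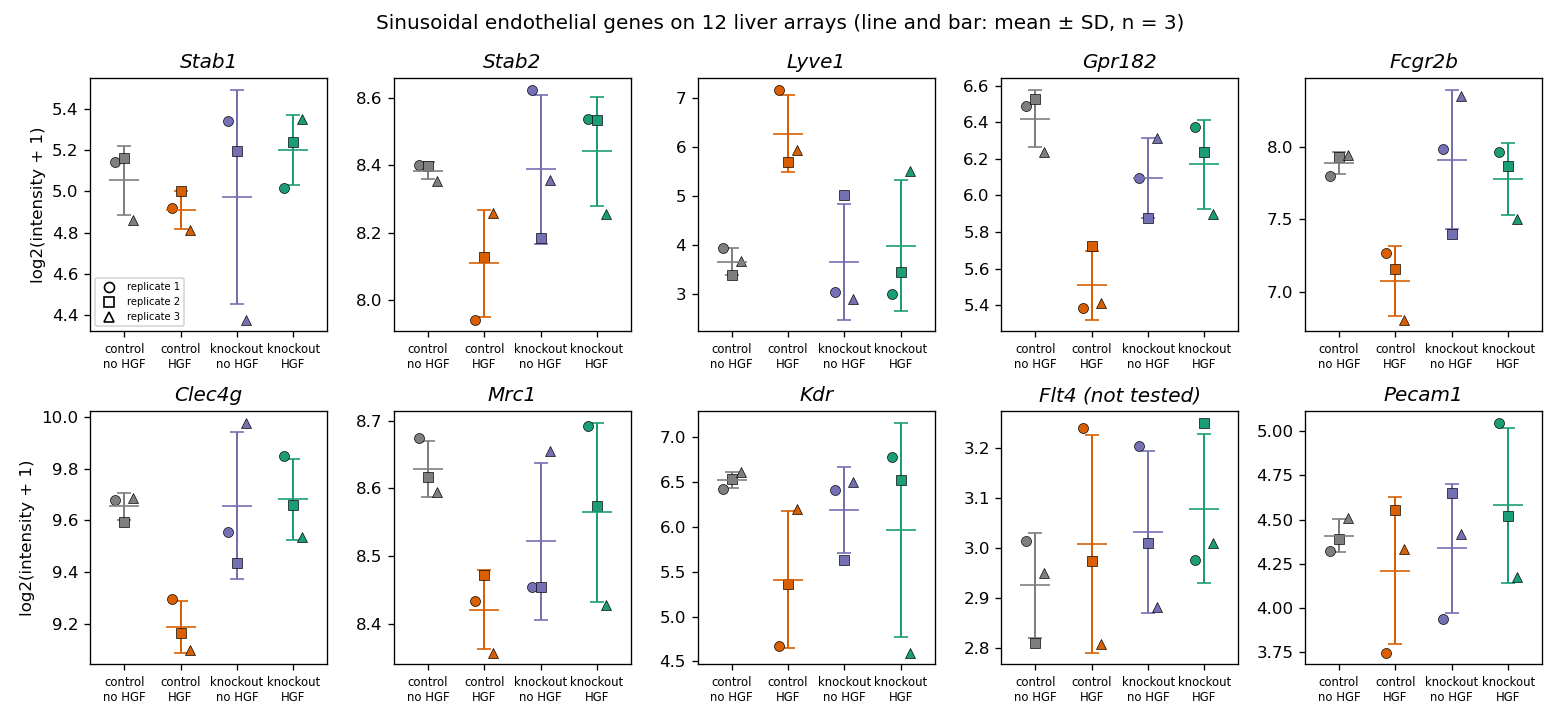
Log2(intensity + 1) of the 10 genes on each of the 12 arrays, by group; symbols give the replicate number, and line and bar give mean and SD (n = 3). In controls the 3 arrays with HGF lie apart from the 3 without for Lyve1 (higher) and for Stab2, Gpr182, Fcgr2b, Clec4g, Mrc1 and Kdr (lower), and each panel has its own vertical scale.

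Among the scavenger receptors, Lyve1 encodes a hyaluronan receptor. In control livers without HGF it was at 3.94, 3.38 and 3.66 (replicates 1 to 3) and with HGF at 7.17, 5.71 and 5.94. All 3 values without HGF were thus below the filter value of 4, near the background of the array, where folds are uncertain. The group means were 3.66 ± 0.28 and 6.27 ± 0.79 (SD, n = 3). The difference was 2.61 (95% interval 1.02 to 4.21, limma adjusted p = 0.107). Without control replicate 1 with HGF it was 2.17, the smallest value when single arrays were left out.

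Stab2 encodes the main clearance receptor for hyaluronan, and Stab1 its close relative. Stab2 was at 8.40, 8.40 and 8.35 in controls without HGF and at 7.94, 8.13 and 8.26 with it. The groups did not overlap, yet the difference of -0.27 (95% interval -0.58 to 0.03, limma adjusted p = 0.302) was small beside the spread. Stab1 was at 5.14, 5.16 and 4.86 without HGF, against 4.92, 5.00 and 4.81 after it. These groups overlapped, and the difference was -0.14 (95% interval -0.64 to 0.35, limma adjusted p = 0.750). Of the 2 hyaluronan receptors Lyve1 and Stab2, one was thus higher and the other lower on every control array with HGF.

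Fcgr2b encodes the inhibitory Fc gamma receptor, which on sinusoidal endothelium removes small immune complexes from the blood. It was at 7.80, 7.93 and 7.94 in controls without HGF and at 7.27, 7.15 and 6.80 with it. The difference was -0.82 (95% interval -1.32 to -0.31, limma adjusted p = 0.112). Clec4g encodes LSECtin, a C-type lectin of liver and lymph node sinusoids. It was at 9.68, 9.59 and 9.69 without HGF, against 9.30, 9.17 and 9.10 after it. The difference was -0.46 (95% interval -0.78 to -0.14, limma adjusted p = 0.131), 27.5% lower in the mean. The mannose receptor gene Mrc1, whose product clears glycoproteins and collagen chains, was at 8.67, 8.62 and 8.59 without HGF, against 8.43, 8.47 and 8.36 after it. Its difference of -0.21 (95% interval -0.43 to 0.02, limma adjusted p = 0.294) was the smallest among the 6 genes whose control groups lay apart in the lower direction.

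Gpr182 encodes an endothelial receptor that binds and removes chemokines. In controls without HGF it was at 6.49, 6.53 and 6.24, and with HGF at 5.39, 5.72 and 5.41. The groups thus lay clear of each other, the highest array with HGF below the lowest without it. The difference was -0.91 (95% interval -1.28 to -0.54, limma adjusted p = 0.0507). When single arrays were left out, the difference stayed between -1.02 and -0.85 and its adjusted p ranged from 0.0188 to 0.187.

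Of the vascular receptors, Kdr encodes VEGFR-2, the main signalling receptor for VEGF-A. It was at 6.43, 6.54 and 6.61 in controls without HGF and at 4.67, 5.36 and 6.20 with it. The groups did not overlap, but the 3 arrays with HGF spread over 1.53 against 0.18 without it. The difference was -1.11 (95% interval -2.33 to 0.10, limma adjusted p = 0.296) and lay at -0.74 without control replicate 1 with HGF and -1.51 without control replicate 3 with HGF. Pecam1, which encodes an adhesion molecule of endothelial junctions, was at 4.32, 4.39 and 4.51 without HGF, against 3.75, 4.55 and 4.34 after it. These groups overlapped, and the difference of -0.20 (95% interval -0.79 to 0.40, limma adjusted p = 0.715) turned to 0.04 without control replicate 1 with HGF.

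**Figure D2:**
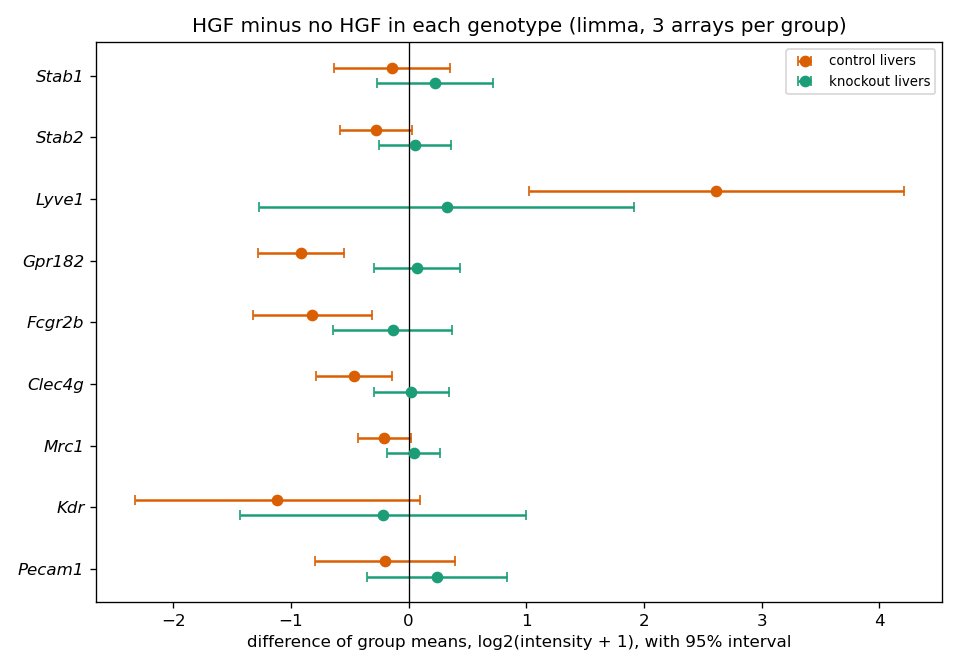
Difference between arrays with and without HGF for the 9 tested genes, in control livers (orange) and knockout livers (green); points are differences of mean log2 values and bars their 95% intervals from limma. In controls the intervals of Lyve1 (1.02 to 4.21), Gpr182, Fcgr2b and Clec4g do not include 0, while in knockouts all 9 intervals include 0.

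Set against all probe sets, limma called 27 of 6683 for HGF in controls (0.404%) and 0 of the 9 tested genes. At an unadjusted p under 0.05 there were 3 of the 9 lower (Gpr182, Fcgr2b and Clec4g) against 10.6% of all probe sets, and 1 higher (Lyve1) against 8.95%. The control groups lay apart in the lower direction for 6 of the 9 genes against 23.7% of all probe sets, and in the higher direction for 1 against 14.1%. The median difference was -0.27 over the 9 genes, 8 of them negative, and -0.09 over all tested probe sets, 64.4% of them negative.

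The outcome of the test depended on which arrays set the spread. With the 2 control groups alone limma called 347 probe sets lower (5.19%), among them Gpr182 (adjusted p = 0.00837), Fcgr2b (0.0134) and Clec4g (0.0263), and 454 higher (6.79%), among them Lyve1 (0.00750). Without both knockout replicate 2 arrays it called 188 lower (2.81%) and 357 higher (5.34%), and of the set Gpr182 (adjusted p = 0.0127), Fcgr2b (0.0234) and Lyve1 (0.0308). Leaving out knockout replicate 2 without HGF alone gave the same 3 genes, with adjusted p of 0.0188, 0.0312 and 0.0426. The differences themselves are those of the control arrays and were the same in these fits. With array weights limma called 11.4% of all probe sets lower and 8.86% higher, with the same 4 genes as from the control groups alone.

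In knockout livers the arrays of one label lay on both sides. Lyve1 was at 3.04, 5.03 and 2.90 without HGF (replicates 1 to 3), against 2.999, 3.44 and 5.51 after it. One array of each group was thus high, replicate 2 without HGF and replicate 3 with HGF, and the groups overlapped. The difference was 0.33 (95% interval -1.27 to 1.92, limma adjusted p close to 1), and 1.28 without both replicate 2 arrays (adjusted p = 0.327). Kdr was at 6.42, 5.63 and 6.50 without HGF, against 6.78, 6.52 and 4.59 after it. The same 2 arrays were its lowest in their groups. Its difference was -0.22 (95% interval -1.43 to 1.00), -0.77 without both replicate 2 arrays (adjusted p = 0.516) and 0.47 without knockout replicate 3 with HGF.

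Gpr182 was at 6.09, 5.88 and 6.31 in knockouts without HGF and at 6.37, 6.24 and 5.90 with it. Its difference was 0.07 (95% interval -0.29 to 0.44), and -0.07 without both replicate 2 arrays. Fcgr2b was at 7.99, 7.40 and 8.35 without HGF, against 7.97, 7.87 and 7.50 after it, with a difference of -0.13 (95% interval -0.64 to 0.37), and -0.44 without those arrays (adjusted p = 0.260). Clec4g was at 9.56, 9.44 and 9.98 without HGF, against 9.85, 9.66 and 9.54 after it, with a difference of 0.03 (95% interval -0.30 to 0.35). In all 3 genes the lowest array of each group was again replicate 2 without HGF and replicate 3 with it. The differences of Stab1, Stab2, Mrc1 and Pecam1 in knockouts were 0.23, 0.05, 0.04 and 0.24, all with intervals that include 0. Clec4g and Stab2 were on the other side of 0 without both replicate 2 arrays, at -0.07 and -0.09, and Stab1, Mrc1 and Pecam1 were at 0.32, 0.00 and 0.43. Limma called 0 of 6683 probe sets for HGF in knockouts (0%), with 127 at an unadjusted p under 0.05, and 0 of the 9 genes. Without both replicate 2 arrays it called 136 lower (2.04%) and 142 higher (2.12%) and still 0 of the 9.

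Taken array by array, 5 of the genes had their 5 lowest values and 1 its 5 highest on the same 5 arrays. These arrays were picked after the values were seen. The share of all probe sets that divide the arrays in this way was not counted. Lyve1 was highest on the 3 controls with HGF, knockout replicate 2 without HGF and knockout replicate 3 with HGF. It was at 5.03 to 7.17 there and at 2.90 to 3.94 on the other 7 arrays. Its filter was passed through these same 5 arrays. On those 5 arrays Gpr182 had its 5 lowest values, at 5.39 to 5.90 against 6.09 to 6.53 on the other 7. The same 5 were the lowest for Fcgr2b (6.80 to 7.50 against 7.80 to 8.35), Stab2 (7.94 to 8.26 against 8.35 to 8.62) and Kdr (4.59 to 6.20 against 6.42 to 6.78). They were the lowest for Clec4g too, by a margin of 9.54 against 9.56. Mrc1 (8.36 to 8.47 against 8.45 to 8.69), Stab1, Pecam1 and Flt4 did not divide the arrays this way. On the response index these 5 arrays stood at 0.88 to 1.07 and the other 7 at -0.05 to 0.32. The index does not contain the genes, but it was built from control arrays that are part of both sides, and no group was formed from this order. Without the share over all probe sets, the order is not shown to be particular to these genes.

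**Figure D3:**
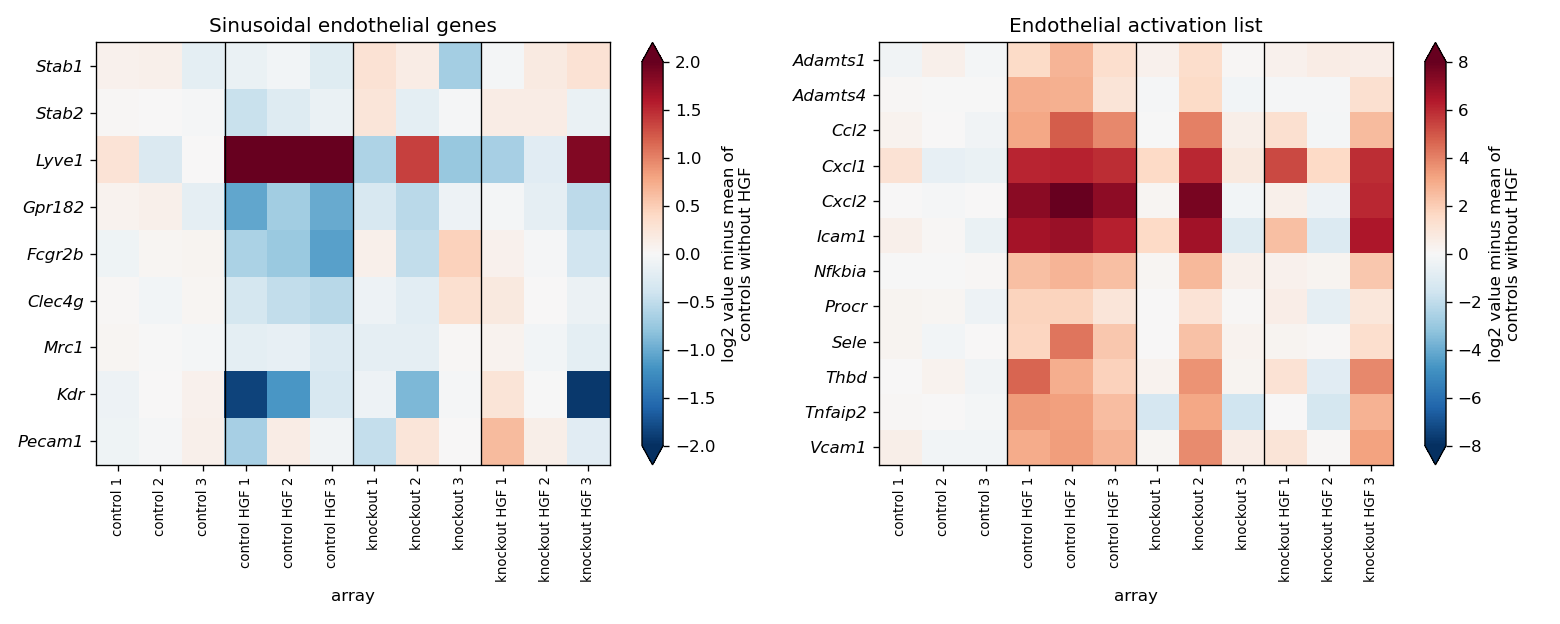
Log2 value of each gene on each array minus the mean of the 3 controls without HGF, for the 9 tested sinusoidal genes (left, colours end at 2) and for 12 tested genes of endothelial activation (right, colours end at 8). The columns that stand out in the left panel (the 3 controls with HGF, knockout 2 without HGF and knockout 3 with HGF) also have high activation genes in the right panel, and Lyve1 runs opposite to Gpr182, Fcgr2b and Kdr.

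How alike 2 genes ran over the 12 arrays is given by Pearson's r, as a description without a test, since the 5 arrays named above shape most of it and all genes share the same arrays. Among Gpr182, Fcgr2b, Clec4g, Mrc1 and Kdr all 10 pairs had a positive r, of 0.56 to 0.94 with a median of 0.81. Lyve1 had a negative r with 7 of the other 8 tested genes, down to -0.89 with Gpr182 and Stab2. Stab1 went with none of them, with r between -0.23 and 0.25.

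The closest pair was Fcgr2b and Clec4g (r = 0.94). The RefSeq promoter table of build GRCm38.p6 held 7 of the 10 genes, among them this pair and Kdr; Lyve1, Gpr182 and Pecam1 were not matched. The 3 promoters are printed to show the windows searched for the pair that ran together and for the 1 gene with a match. Each window has 300 bases, from 250 before to 50 after the annotated start, on the strand of the gene, 5′ to 3′. Both strands were searched for 4 motifs, and capitals mark a match. The AP-1 motif was spelled TGANTCA. The motif of GATA factors, which shape sinusoidal endothelium, was spelled AGATAA. The motif of ETS factors, which act in all endothelium, was spelled CCGGAA. The E-box, bound by clock factors among others, was spelled CACGTG; no spelling contains another. Fcgr2b lies on the minus strand at chr1:170976022-170976321, Clec4g on the minus strand at chr8:3720602-3720901 and Kdr on the minus strand at chr5:75978406-75978705.
Fcgr2b: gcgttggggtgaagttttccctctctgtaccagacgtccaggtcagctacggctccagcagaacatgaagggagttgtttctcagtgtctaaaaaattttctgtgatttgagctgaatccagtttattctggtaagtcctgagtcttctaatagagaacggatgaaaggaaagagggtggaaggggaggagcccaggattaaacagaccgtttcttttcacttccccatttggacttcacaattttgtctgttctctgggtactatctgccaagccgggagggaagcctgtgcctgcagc
Clec4g: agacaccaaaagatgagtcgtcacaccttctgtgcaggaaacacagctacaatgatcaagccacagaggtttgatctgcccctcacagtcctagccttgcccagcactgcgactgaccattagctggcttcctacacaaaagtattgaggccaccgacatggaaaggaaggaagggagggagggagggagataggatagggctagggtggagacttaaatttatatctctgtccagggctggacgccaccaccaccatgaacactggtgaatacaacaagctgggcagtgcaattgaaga
Kdr: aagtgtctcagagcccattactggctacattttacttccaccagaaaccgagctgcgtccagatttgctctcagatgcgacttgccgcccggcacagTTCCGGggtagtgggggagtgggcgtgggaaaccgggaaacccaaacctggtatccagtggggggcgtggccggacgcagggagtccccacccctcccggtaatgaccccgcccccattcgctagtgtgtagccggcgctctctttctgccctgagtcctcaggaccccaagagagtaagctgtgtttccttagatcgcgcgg
The 1 match in the 7 windows was the ETS motif of Kdr, read as TTCCGG on the printed strand with its first base 153 bases before the start. Of 32851 promoter windows searched, 14.9% held the ETS motif, 11.2% GATA, 7.81% AP-1 and 7.15% the E-box. The windows of 1 chromosome were left out of this count. A match is a run of letters and does not show binding, and a window without one says only that these letters are not in it.

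The genes nearest to each member by r differed in kind. Nearest to Gpr182 were Cavin2 (r = 0.94), which encodes a coat protein of caveolae, Mettl9 (0.91) and Sox18 (0.90), a transcription factor of endothelium. Nearest to Mrc1 were Calcrl (0.93), which encodes the receptor for adrenomedullin and related peptides, Adgre5 and Smim15 (both 0.91). Nearest to Clec4g after Fcgr2b were Hpgd and Srr (both 0.93), and nearest to Fcgr2b were Akr1c13, Akr1c12 (both 0.96) and Mrpl47 (0.95). Nearest to Stab2 were Gpt (0.95), an aminotransferase gene of hepatocytes, the clock repressor gene Nr1d1 (0.94) and Hadh (0.92), a gene of fat oxidation. Nearest to Lyve1 were Lrrc8a (0.97), which encodes a subunit of volume-regulated channels, the transcription factor gene Ets2 and D10Wsu102e (both 0.96). Nearest to Kdr were the thiamine transporter gene Slc19a2 (0.97), the adaptor gene Grb7 (0.95) and Elk3 (0.94), an ETS family transcription factor gene. For Stab1 (Lrpprc, Ints4 and Sec31a) and Pecam1 (Slc25a33, Psmd13 and Tbcb) the nearest genes had r of 0.82 to 0.87. The values run over 6683 probe sets, so a high r was to be found for many genes.

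Other genes of the endothelium were taken from lists made beside the set. Of 18 tested genes in a further list of sinusoidal endothelium, limma called 0 for HGF in controls. Their median was -0.33, against -0.09 over all probe sets. Of the 18, 12 were negative, near the share of 64.4% over all probe sets. With the control groups alone, where 5.19% of all probe sets passed lower and 6.79% higher, 5 of the 18 passed, Cavin2 (-1.02), Gatm (-1.05), Bmp2 (-0.65) and Maf (-0.36) lower and the cytokine gene Il1a (2.79) higher; Gatm, Bmp2, Maf and Il1a are named after their values were seen. Bmp2 encodes a signal by which the endothelium controls hepcidin in hepatocytes, and Maf a transcription factor of sinusoidal identity. With HGF, Bmp2 was at 6.03, 6.15 and 6.16, all below the lowest control array without it (6.52). The lysosomal protease gene Ctsl, the water channel gene Aqp1 and the fatty acid receptor gene Cd36 had differences of 0.36, -0.07 and 0.26.

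Of 18 tested genes of endothelium in general, 9 were negative and 9 positive, with a median of 0.01 and 0 called. With the control groups alone, against the same 5.19% and 6.79% of all probe sets, 3 passed lower, Sox18 (-1.59), Tmem204 (-1.05) and Adgrl4 (-0.50), and 3 higher, Rasip1 (1.70), Cd93 (1.21) and Esam (0.97), all but Sox18 named after their values were seen. Sox18 was at 4.54, 4.84 and 4.21 without HGF, against 2.89, 2.77 and 3.16 after it, below the filter value on all 3. It was thus tested through the arrays on which it was high, and its difference is uncertain. The sphingosine phosphate receptor gene S1pr1, the TGF-beta co-receptor gene Eng and the diaphragm gene Plvap had differences of -0.22, -0.18 and 0.18. The 9 sinusoidal genes described here had a lower median than this list, a contrast that was not tested.

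In the VEGF, angiopoietin and adrenomedullin axis 7 of 19 genes on the array were tested and 0 called, with a median of -0.17. Vegfa, the ligand of Kdr, had a difference of 0.10 and the co-receptor gene Nrp1 of -0.17. Flt1, which encodes VEGFR-1, stayed at 2.27 to 2.90 on the 12 arrays and was not tested. The angiopoietin receptor gene Tek had a difference of -0.53 (limma adjusted p = 0.116). Calcrl and Ramp2, which encode the 2 parts of an adrenomedullin receptor, had differences of -0.67 and -0.64, and the ligand gene Adm one of 2.91. These 3, of which Ramp2 and Adm are named after their values were seen, passed with the control groups alone (adjusted p = 0.0409, 0.0230 and 0.0170). Adm lay under the filter value of 4 on every control array without HGF and was tested through the arrays on which it was high, so its difference is uncertain and its call is no support. Adm was at 2.85, 2.59 and 2.90 in controls without HGF and at 5.69, 6.85 and 4.52 with it. Calcrl was at 4.26, 4.26 and 3.95 in controls without HGF and at 3.73, 3.49 and 3.24 with it. It too lay near the filter value and was tested through the arrays on which it was high. Its difference is therefore uncertain and its call is no support. In a list of Notch and BMP genes 6 of 18 were tested, with a median of -0.40 and 0 called.

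Genes of endothelial activation ran the other way. All 12 tested were higher on every control array with HGF than on any without, which held for 14.1% of all probe sets, and their median was 3.04. Limma called 0 of them in the main fit with all arrays, and 12 with the control groups alone, against 6.79% of all probe sets called higher. Those that lay below 4 without HGF were tested only through the arrays on which they were high. The adhesion gene Icam1 was at 4.91, 4.58 and 3.95 without HGF, against 11.13, 11.41 and 10.70 after it, and the chemokine gene Cxcl1 at 6.84, 5.00 and 5.13 and then at 11.76, 11.78 and 11.56. In knockouts Icam1 was at 6.05, 11.18 and 3.44 without HGF, against 6.89, 3.40 and 10.96 after it. Knockout replicate 2 without HGF and replicate 3 with HGF were thus the high arrays here as well. The difference of Icam1 in knockouts was 0.19, and 4.18 without both replicate 2 arrays (limma adjusted p = 0.0923). Cytokines can raise such genes in other liver cells too, and these values do not show which cells held the RNA.

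**Figure D4:**
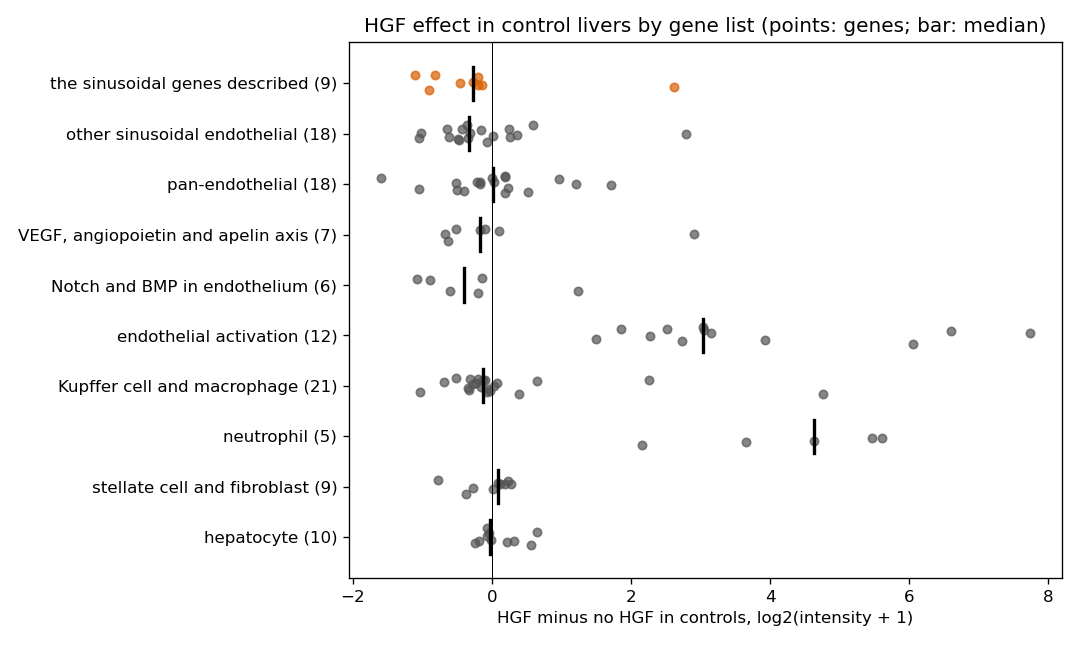
Difference between control arrays with and without HGF for every tested gene of 10 lists, with the number of genes in brackets; points are genes, bars are medians, and the vertical place of a point within its row carries no meaning. The 9 sinusoidal genes lie below 0 apart from Lyve1 (2.61), while all 12 activation genes and all 5 neutrophil genes lie above 0.

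Markers of other cells were set beside these results. The summed intensity of 21 macrophage and Kupffer cell genes was 6249 to 8863 in controls without HGF and 5629 to 7065 with it. Of the 21, 15 had a negative difference (median -0.13, 0 called), against 64.4% of all probe sets. With the control groups alone, Slc40a1 (-1.04) and Vsig4 (-0.68) passed lower, against 5.19% of all probe sets. Cd14 (4.76) and Marco (2.25) passed higher, against 6.79%. These genes are named after their values were seen. The Kupffer cell gene Clec4f, named as a defining marker, was at 8.80 to 9.28 without HGF and 8.48 to 8.87 with it. The summed intensity of 13 neutrophil genes was 84.0 to 847 without HGF and 4406 to 8050 with it. Only 5 of the list were tested, S100a8, S100a9, Mmp8, Il1b and Lcn2 (median 4.62, 0 called). All 5 were higher on every control array with HGF, against 14.1% of all probe sets. Those below 4 without HGF were tested only through the arrays on which they were high. Mpo, Elane, Ngp, Camp, Ltf, Csf3r, Cxcr2 and Mmp9 did not pass the filter, and which cells held this RNA was not tested. The summed intensity of 10 hepatocyte genes was 113711 to 115648 without HGF and 111453 to 120412 with it (median difference -0.03). That of 15 stellate cell and fibroblast genes was 2238 to 2658 and 2426 to 2708 (median 0.09). That of the 10 sinusoidal genes was 1995 to 2034 without HGF and 1518 to 1630 with it. The sums of the other endothelial lists did not share this order. The further sinusoidal list (28 genes on the array) summed to 6382 to 7402 without HGF and 7316 to 8366 with it. The general endothelial list (37 genes) summed to 1049 to 1121 and 1011 to 1104. Such sums weigh the brightest genes most. Gene by gene, 12 of the 18 tested genes of the further sinusoidal list were negative, against 64.4% of all probe sets. Their median was -0.33, beside -0.27 for the 9 sinusoidal genes. No gene of the cholangiocyte or lymphocyte lists passed the filter, and the 1 tested gene each of platelets (Pf4) and erythroid cells (Alas2) had differences of 0.45 and -0.33. No value in these lists was at 0. The part of other cells in the differences of the sinusoidal genes was not tested.

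Knockout and control livers without HGF were close for these genes. The differences, knockout minus control, were -0.08 for Stab1, 0.00 for Stab2, Lyve1 and Clec4g, 0.02 for Fcgr2b, -0.07 for Pecam1, -0.11 for Mrc1, -0.34 for Kdr and -0.32 for Gpr182. That of Gpr182 had a 95% interval of -0.69 to 0.04 (limma adjusted p = 0.531) and that of Lyve1 one of -1.59 to 1.59, a wide interval. Limma called 4 of 6683 probe sets (0.0599%) and 0 of the 9 genes, and no gene of the set had groups that lay apart, against 12.1% of all probe sets lower and 6.61% higher. At an unadjusted p under 0.05 there were 0 of the 9, against 6.72% of all lower and 4.1% higher. With these groups alone limma called 0.0449% lower and 0.0299% higher, and without both replicate 2 arrays 1.23% and 1.47%, again none of the 9. Without both replicate 2 arrays Lyve1 had a difference of -0.69 (adjusted p = 0.638), Fcgr2b of 0.28 (adjusted p = 0.487) and Gpr182 of -0.22. Clec4g and Stab2 were then at 0.11, Stab1 at -0.20, Pecam1 at -0.23, Mrc1 at -0.07 and Kdr at -0.06.

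With HGF, knockout livers were lower in Lyve1 and higher in the other 8 tested genes, without a call. Lyve1 differed by -2.29 (95% interval -3.88 to -0.70, limma adjusted p = 0.484), and all 3 knockout arrays (2.999 to 5.51) lay below the controls (5.71 to 7.17). Gpr182 differed by 0.66 (95% interval 0.29 to 1.03, adjusted p = 0.383), Fcgr2b by 0.71 (0.20 to 1.21, adjusted p = 0.484) and Clec4g by 0.49 (0.17 to 0.81, adjusted p = 0.474). In these 3 genes and in Stab1 (0.29) every knockout array lay above every control array, which held for 8.81% of all probe sets, and the lower direction, seen in Lyve1, for 6.08%. At an unadjusted p under 0.05 there was 1 gene lower (Lyve1) against 4.28% of all probe sets, and 4 higher (Stab2, Gpr182, Fcgr2b and Clec4g) against 5.3%. Stab2, Mrc1, Kdr and Pecam1 differed by 0.33, 0.14, 0.55 and 0.37 with overlapping groups. Limma called 1 of 6683 probe sets (0.015%) and 0 of the 9 genes. This comparison shares its control arrays with the HGF effect in controls, so the 2 are not independent of each other. Without both replicate 2 arrays the differences were -2.02 for Lyve1, 0.63 for Gpr182, 0.66 for Fcgr2b and 0.50 for Clec4g, with adjusted p of 0.409 to 0.446; limma then called 0% lower and 0.0299% higher. Stab1, Stab2, Mrc1, Kdr and Pecam1 were then at 0.27, 0.29, 0.14, 0.28 and 0.40. With array weights, which let arrays differ in precision, limma called Lyve1 lower (2.29% of all probe sets) and Gpr182, Fcgr2b and Clec4g higher (2.05%), each at an adjusted p of 0.0214. The call of Lyve1 is no support, since it was tested only through arrays on which it was high, among them all 3 controls with HGF.

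Averaged over both conditions, limma again called 1 probe set (0.015%) and none of the 9 genes. The averaged knockout difference was -1.15 (95% interval -2.27 to -0.02, adjusted p = 0.528) for Lyve1, 0.36 (adjusted p = 0.529) for Fcgr2b and 0.25 (adjusted p = 0.494) for Clec4g, and lay between 0.02 and 0.17 for the other 6. At an unadjusted p under 0.05 Lyve1 was lower, against 4.91% of all probe sets, and Fcgr2b and Clec4g higher, against 4.47%. Leaving out both replicate 2 arrays, limma called 0.359% lower and 0.494% higher and 0 of the 9. The averaged difference was then -1.35 for Lyve1, 0.47 for Fcgr2b and 0.31 for Clec4g, and 0.03 to 0.21 for the other 6. With array weights limma called Lyve1 lower (3.71% of all probe sets) and Fcgr2b and Clec4g higher (4.82%), with adjusted p of 0.0206, 0.0206 and 0.0334. Lyve1 was tested only through the arrays on which it was high, so its call is no support.

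Whether the HGF effect differed between genotypes was tested by the interaction, the effect in knockouts minus that in controls. It was 0.99 for Gpr182 (95% interval 0.47 to 1.51, limma adjusted p = 0.265), -2.29 for Lyve1 (-4.54 to -0.04, adjusted p = 0.458), 0.68 for Fcgr2b (-0.04 to 1.40, adjusted p = 0.482) and 0.49 for Clec4g (0.04 to 0.94, adjusted p = 0.439). The other 5 had interactions of 0.25 to 0.90 with intervals that include 0. Limma called 0 of 6683 probe sets for the interaction (0%), with 724 at an unadjusted p under 0.05, and the smallest adjusted p over all was 0.211. Those 724 held Lyve1 among the lower (5.04% of all probe sets) and Gpr182 and Clec4g among the higher (5.79%). Without both replicate 2 arrays it called 13 lower (0.195%) and 11 higher (0.165%), none of them in the set, and the interaction was 0.84 for Gpr182 (adjusted p = 0.223) and -1.33 for Lyve1 (adjusted p = 0.601). Fcgr2b was then at 0.38, Kdr at 0.34, Clec4g at 0.39, Stab2 at 0.18, Mrc1 at 0.21, Stab1 at 0.47 and Pecam1 at 0.63. With array weights limma called 1.66% of all probe sets lower and 2.35% higher, the latter with Gpr182 (1.10, adjusted p = 0.0192), Clec4g (0.70, adjusted p = 0.0319) and Fcgr2b (0.85, adjusted p = 0.0496); the estimate of these weights stopped before it converged. Whether the HGF effect differed between genotypes thus depended on how arrays were weighted for these 3 genes and was not called for the other 6 in either fit. For Kdr the difference in controls (-1.11) lay within the interval of that in knockouts (-1.43 to 1.00).

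**Figure D5:**
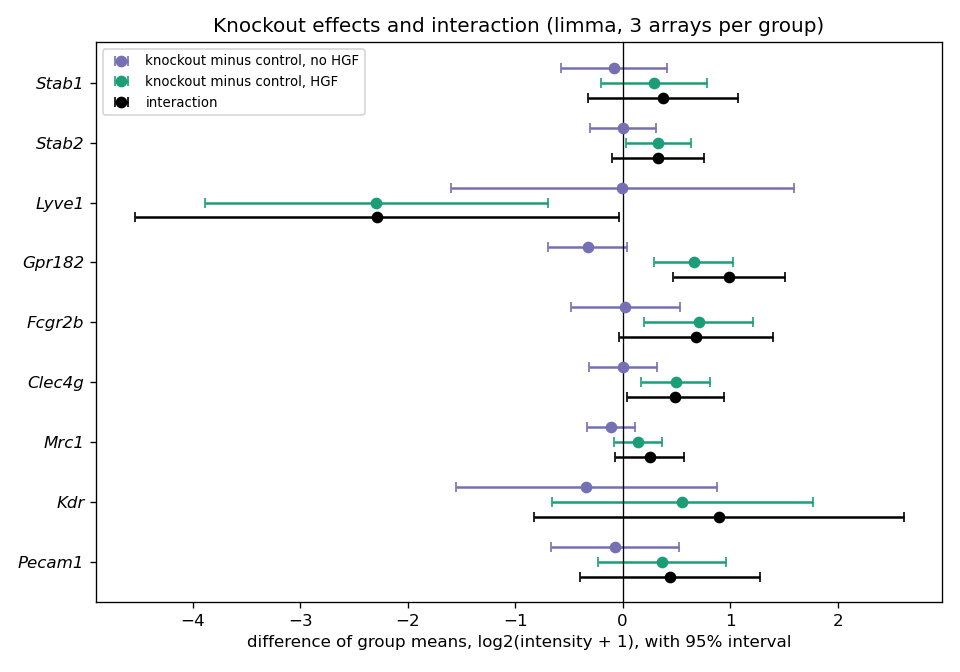
Knockout minus control without HGF (purple), knockout minus control with HGF (green) and the interaction (black) for the 9 tested genes, as differences of mean log2 values with 95% intervals from limma. Without HGF all intervals include 0, and with HGF those of Lyve1 (-3.88 to -0.70), Gpr182, Fcgr2b, Clec4g and Stab2 do not, though none passed adjustment over all probe sets.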

How the data were processed

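Total RNA from liver was labelled with biotin and hybridised to Affymetrix arrays, per the labels' protocols. The authors deposited probe set intensities on a linear scale, made with GCRMA, which the submitters' processing notes name without a version. GCRMA brings arrays to a common distribution and compresses values near background. Groups and replicate numbers come from the sample titles. Nothing in the labels ties arrays with one number to one animal. Of 16539 probe sets, 64 controls were left out. Probe sets were named through the platform annotation, and 5 listed names through RefSeq synonyms.

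Log2 values (pseudocount 1) were modelled as 4 group means (8 residual degrees of freedom) using limma 3.58.1 under R 4.3.3, 6 contrasts, two-sided tests and Benjamini-Hochberg adjustment over 6683 probe sets. The fit was tested on simulated data. A gene was called at an adjusted p under 0.05. Replicate numbers were not used to pair arrays in this fit. Of 18 same-number pairs, 6 had deviations from the group means with r above 0.1. Of the 6 pairs within one genotype, 3 did. There r was 0.10, 0.18 and 0.05 in controls (replicates 1 to 3) and 0.12, -0.83 and -0.70 in knockouts. Arrays with the same replicate number and genotype carry adjacent array numbers, so a pairing is not excluded.

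The 10 genes and all lists were chosen with earlier results of these data known. Beside the 10, the text names up to 3 of the members of a list with the highest mean value, called members, the defining markers of other cells, and the 3 genes nearest to each tested member by r; others are marked as chosen after their values were seen. Alternatives were another pseudocount, filters, normalization, spread, array weights, replicate blocks and arrays left out. The number of arrays limits the precision.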

Additional observations from a re-analysis of the deposited data

How the results depend on the processing

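Of the 9 genes tested in the main fit, the filter at 6 kept 6. In that main fit of all arrays, limma called 0 of the 9 in every comparison. For HGF in controls, it called 1 gene, Gpr182, with a pseudocount of 16, a filter at 6 or quantile normalization, 4 with the 2 control groups alone, 4 with array weights, 3 without both knockout replicate 2 arrays, 0 with no filter, and 0 to 3 when single arrays were left out. Array weights, whose fit stopped short of its convergence tolerance, called 4 for the knockout effect with HGF, 3 for the averaged effect and 3 for the interaction; no other setting called a gene of the set outside HGF in controls.

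Over all probe sets, the count for HGF in controls (27) was 41 with a pseudocount of 16, 13 with no filter, 801 with the control groups alone, 1353 with array weights, 545 without both knockout replicate 2 arrays and 0 to 317 when single arrays were left out. Array weights gave 637 for the knockout effect without HGF (4), 290 with HGF (1), 570 averaged (1) and 268 for the interaction (0). Without both replicate 2 arrays these were 180, 2, 57 and 24, and 278 for HGF in knockouts (0). The effect without HGF gave 1 with a filter at 6, and the averaged effect 2 with a pseudocount of 16. Leaving out single arrays gave 1 to 9 without HGF, 1 to 3 with HGF, 1 to 9 averaged and 0 to 1 for the interaction.

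With the replicate block, limma called 0 probe sets for HGF in controls, also with the replicate block within genotype, and 1 for the knockout effect without HGF; the members called stayed at 0. Same-number pairs had r of -0.83 to 0.29, so the block rests on replicate and array numbers alone. No called direction turned. Lyve1 without HGF lay near background, which limits its fold.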
